A study of Mus musculus with 4 samples.

Results

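Collagens are trimeric proteins of the extracellular matrix, and each kind of chain has its own gene. The collagen chains described here were all genes of the deposited expression table whose symbol has the form Col, a number, a and a number. They were 41 of the 18373 genes listed. Each chain was included by its name alone, but collagens as the subject were chosen with earlier results of these data known. In these libraries the chains of the basement membrane network carried most of the collagen transcript, and the chain Col4a2 was lower in the libraries labelled siAirn than in NC, while Col3a1, Col5a1, Col6a3, Col12a1 and Col14a1, chains of fibrils and of the matrix around them, were higher. With GC content and transcript length corrected for, Col5a1 and Col14a1 no longer had an adjusted p under 0.05. All of these calls depended on the libraries kept.

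The cells were primary liver sinusoidal endothelial cells (LSECs), which line the liver capillaries, from Balb/c mice of 8 weeks of age. They were isolated by enzyme perfusion with selection for CD146, a surface protein of endothelial cells, plated on collagen-coated wells and transfected for 48 h, and they are labelled as day 3 of culture. The NC group, 2 libraries, received a control siRNA, and the siAirn group, 2 libraries, received siRNA against Airn, a long noncoding RNA. The design text speaks of separate siRNAs while both siAirn titles name siAirn1, so the labels leave the siRNA of each library unsettled. The labels call the replicates biological without saying whether they came from separate animals, so p-values measure the spread between these samples.

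Airn itself had 7 and 3 counts in the NC replicates and 11 and 9 counts in the siAirn replicates. The ratio of siAirn to NC was 1.97, with an exact binomial 95% interval of 0.878 to 4.7 that covers counting error only. The counts of the target were thus not lower in the siAirn libraries, and the groups are called here by their labels. The libraries held between 17308382 and 18371959 counts, and 3 counts correspond to between 0.166 and 0.175 CPM, the count scaled to the library total. LSEC genes such as Stab1, Stab2 and Lyve1 were well expressed: the 10 LSEC markers summed to 3725 and 3746 CPM in NC, and to 2621 and 2371 CPM in siAirn.

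As background, collagens are sorted by the structures they build. Fibrillar collagens, types I, III and V among them, form the banded fibrils of scar and stroma, and type V is known to regulate the start of type I fibrils. Type IV forms the sheet-like network of basement membranes, type VI forms beaded filaments, type VIII forms hexagonal networks, and FACIT collagens, such as types XII and XIV, attach to the surface of fibrils. LSECs in the healthy liver lack a continuous basement membrane, and hepatic stellate cells are known as a main source of fibrillar collagen in fibrosis.

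Of the 41 chains, 23 had enough counts to be tested, and 22 of these had at least 10 counts in every library, so that the filter did not select them for being high in 1 group. The exception was Col11a1, with 10 and 7 counts in NC against 15 and 9 in the siAirn libraries. Another 18 chains were too low to test, and 16 of them had at most 10 counts in every library. The exceptions were Col16a1, which reached 18.2 counts in siAirn replicate 2, and Col17a1, which reached 11 counts in siAirn replicate 1. The untested chains were Col2a1, Col11a2 and Col24a1 of the fibrillar class, Col4a3 and Col4a4 of basement membranes, Col15a1, Col8a2, Col10a1, Col6a4, Col6a5, Col6a6, the FACIT chains Col9a2, Col16a1, Col19a1 and Col22a1, the membrane-bound chains Col17a1 and Col25a1, and Col28a1. Low counts limit what can be said of these chains, and no change is read from them. Col4a6, Col9a1, Col21a1 and Col26a1 were not analysed here.

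At an adjusted p under 0.05 in edgeR's quasi-likelihood test (Benjamini-Hochberg), 5 of the 23 chains tested rose in siAirn, which is 21.7%, against 8.27% of the 13628 genes tested. At the same threshold 1 chain fell, which is 4.35%, against 8.56% of all genes tested. By the threshold of the study's methods, a fold change above 1.4 with p below 0.05, here read as the p before adjustment, 6 chains were higher, which is 26.1%, against 5.25% of all genes. By that rule 2 chains were lower, Col13a1 and Col23a1, where 4.72% of all genes were. The groups did not overlap in CPM in 12 chains that were higher in siAirn, 52.2% of those tested, against 30.9% of all genes. They did not overlap in 4 chains that were lower, 17.4%, against 31.9% of all genes. The median log2 fold change of the 23 chains was 0.34, against 0.00126 for all genes tested, and 17 chains, 73.9%, had a positive value, against 50.1% of all genes. These shares are descriptions of the list, not tests of it.

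**Figure D1:**
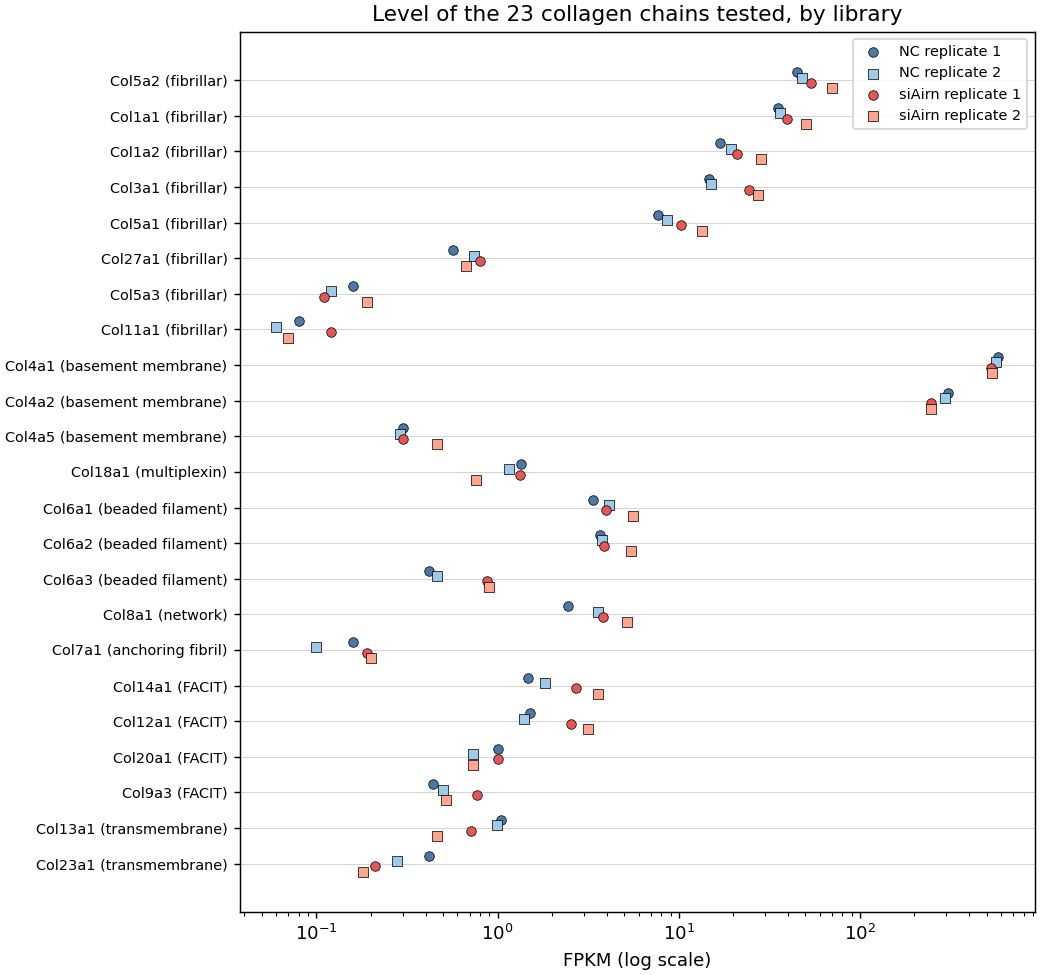
Level of each of the 23 collagen chains tested in the 4 libraries, as FPKM (a length-scaled expression level) on a log scale, with NC in blue and siAirn in red, circles for replicate 1 and squares for replicate 2. Col4a1 and Col4a2 lie above all other chains, and the siAirn points of Col3a1, Col6a3, Col12a1 and Col14a1 lie to the right of the NC points.

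Levels of different genes were compared in FPKM (fragments per kilobase of transcript, scaled by the library total), the reading given here to the deposited values whose header names no unit. Per transcript length, Col4a1 and Col4a2 were the most abundant chains in NC, and Col5a2, Col1a1 and Col1a2 followed. In siAirn the order was the same except that Col3a1, at a mean of 25.8 FPKM, came before Col1a2 at 24.7 FPKM, a difference within the spread of the replicates. In NC, Col4a1 ranked 141 and Col4a2 ranked 283 by mean FPKM among the genes listed. Together they made 86.5% and 85.3% of the summed collagen FPKM in NC, and 81.8% and 78.1% in siAirn. The fibrillar chains made 11.7% and 12.7% in NC, and 15.8% and 19.1% in siAirn. The share thus moved from the basement membrane chains to the fibrillar chains in both siAirn libraries, and further in replicate 2. The total over all 41 chains differed little, at 1026 and 1007 FPKM in NC and 948.1 and 998 FPKM in siAirn, and the gap between the groups was smaller than that between the siAirn replicates.

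**Figure D2:**
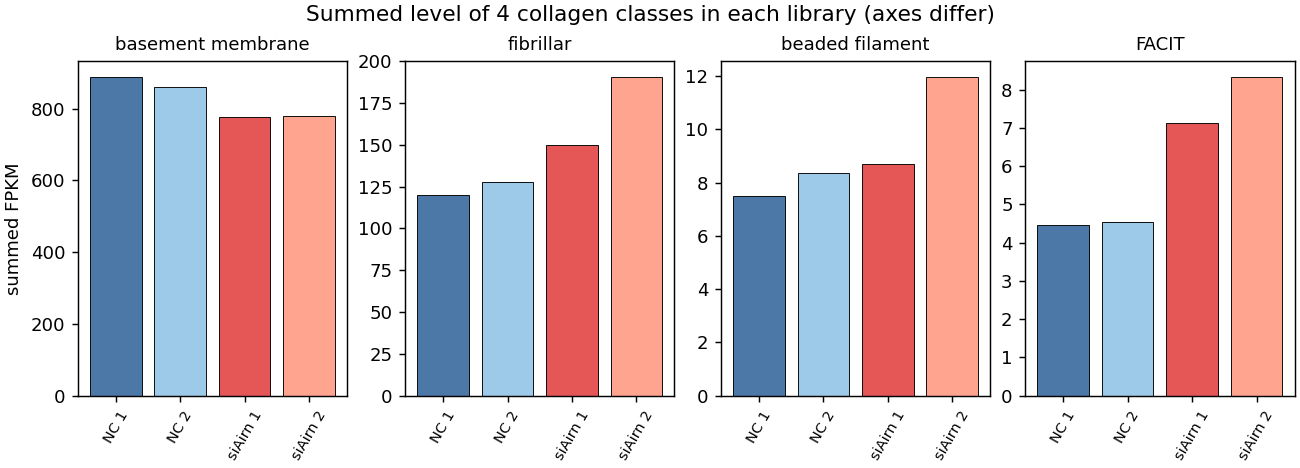
Summed FPKM of 4 collagen classes in each library, with 1 bar for each library and axes that start at 0 and differ between panels. The basement membrane sum was 888 and 860 in NC and 776 and 780 in siAirn, while the fibrillar sum was 120 and 128 in NC and 150 and 190 in siAirn.

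The basement membrane chains were led by Col4a1 and Col4a2, which form the common type IV trimer of vessels. In GENCODE M21 (GRCm38) the 2 genes lie head to head on chromosome 8, Col4a1 at chr8:11198423-11312826 on the minus strand and Col4a2 at chr8:11312805-11449287 on the plus strand. Their start sites are 21 bases apart, and their first exons overlap by 22 bases. The shared bases are shown because this arrangement places the start of both genes in 1 stretch of DNA, read here on the plus strand.
Col4a1 and Col4a2, chr8:11312805-11312826: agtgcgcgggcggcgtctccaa

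Despite this arrangement, the fitted changes of the 2 chains were of unequal size. Col4a2 was at 1957 and 1899 CPM in NC and at 1537 and 1551 CPM in siAirn. Both siAirn libraries were below both NC libraries by a margin larger than the gap between replicates. The log2 fold change was -0.32 ± 0.06 (SE, 2 against 2 libraries), with an adjusted p of 0.0148 from edgeR's quasi-likelihood test. Col4a1 was at 3817 and 3719 CPM in NC and at 3367 and 3431 CPM in siAirn. It was also lower in both siAirn libraries, with a log2 fold change of -0.15 ± 0.05 that missed the threshold (adjusted p = 0.108). The ratio of Col4a1 to Col4a2 in FPKM was 1.90 and 1.91 in NC and 2.14 and 2.16 in siAirn. The ratio was higher in both siAirn libraries, and its exact two-sided permutation p was 0.333, the smallest that 2 against 2 libraries can give. The bases of Col4a2 exons that lie under genes of the opposite strand, Col4a1 and Gm15419, were 0.982% of the total.

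The other basement membrane chains were at low levels. Col4a5, a chain of the type IV trimers of kidney and other tissues, had 33 counts in each NC library, against 34 and 51 in the siAirn libraries. The difference came from siAirn replicate 2 and did not pass the test (log2 fold change 0.34 ± 0.32, adjusted p = 0.485). Col4a3 and Col4a4, its partners in the glomerular basement membrane, had 7 or fewer counts in every library. Col18a1, the source of the fragment endostatin and a collagen of vascular basement membranes, was at 6.59 and 5.53 CPM in NC and at 6.31 and 3.90 CPM in siAirn. The groups overlapped, with a log2 fold change of -0.25 ± 0.26 and an adjusted p of 0.538. Col15a1, its relative, had 5 or fewer counts in every library and was not tested.

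All 8 fibrillar chains tested had a positive log2 fold change (median 0.39), against 50.1% of all genes with a positive value. Of the 8, 2 passed the test, Col3a1 and Col5a1, where 8.27% of all genes rose, and in 5 the groups did not overlap, where 30.9% of all genes were higher without overlap. Over the fits that left out 1 library the fibrillar median lay between 0.21 and 0.51. With GC content and transcript length corrected for, it was 0.27. The sign of 2 low chains was not stable: Col27a1 turned to -0.11 without NC replicate 1 and to -0.14 without siAirn replicate 1, and Col5a3 turned to -0.15 without NC replicate 2 and to -0.36 without siAirn replicate 2. Col3a1, the homotrimeric collagen of reticular fibres in the liver (chr1:45311538-45349706, plus strand), was at 80.4 and 82.8 CPM in NC and at 130 and 147 CPM in siAirn. The siAirn libraries stood far above NC compared with the gap within each group. The change was 1.70-fold, a log2 fold change of 0.76 ± 0.08 with an adjusted p of 0.00509. Of the exonic bases of Col3a1, 1.44% lie under the same-strand gene Gm47302 and could take reads of either gene.

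Col5a1, the chain that every common type V trimer contains (chr2:27886425-28039514, plus strand), was at 62.5 and 70.6 CPM in NC and at 82.2 and 108 CPM in siAirn. Both siAirn values were above both NC values, and siAirn replicate 2 was further from NC than replicate 1. The change was 1.42-fold, a log2 fold change of 0.51 ± 0.13 with an adjusted p of 0.0404. Without siAirn replicate 2 the log2 fold change was 0.30 with an adjusted p of 0.0832, and the call was also lost without either NC library. Its partner Col5a2 was at 294 and 315 CPM in NC and at 342 and 449 CPM in siAirn, again without overlap. It missed the threshold, with a log2 fold change of 0.38 ± 0.12 and an adjusted p of 0.079, and 0.17 without siAirn replicate 2. Col5a3, another chain of type V, had 17 and 13 counts in NC, against 12 and 20 in the siAirn libraries, and overlapping groups (0.07 ± 0.45, adjusted p = 0.932).

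Type I collagen, the main collagen of scar, was measured through Col1a1 and Col1a2. Col1a1 was at 207 and 214 CPM in NC and at 224 and 292 CPM in siAirn. Replicate 1 of siAirn was close to NC and replicate 2 well above it. The log2 fold change was 0.29 ± 0.12 with an adjusted p of 0.134, and without siAirn replicate 2 it was 0.09. Col1a2 was at 87.2 and 100 CPM in NC and at 105 and 144 CPM in siAirn, with the same order of libraries. Its log2 fold change was 0.41 ± 0.15 with an adjusted p of 0.0974, and 0.17 without siAirn replicate 2. Neither type I chain passed the test, although both siAirn libraries exceeded both NC libraries in each.

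The remaining fibrillar chains were low and did not separate the groups. Col27a1, a fibrillar chain known from cartilage, ranged from 75 to 108 counts and had a log2 fold change of 0.07 ± 0.23 (adjusted p = 0.864). Col11a1, a chain of type XI and a relative of Col5a1, had a log2 fold change of 0.47 ± 0.52 (adjusted p = 0.568). Within the fibrillar sum, Col3a1 took 12.1% and 11.7% of the FPKM in NC and 16.2% and 14.3% in siAirn. The ratio of Col3a1 to Col1a1 in FPKM was 0.413 and 0.412 in NC and 0.618 and 0.539 in siAirn. Type III transcript was thus higher relative to type I in both siAirn libraries (exact two-sided permutation p = 0.333, the smallest possible).

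**Figure D3:**
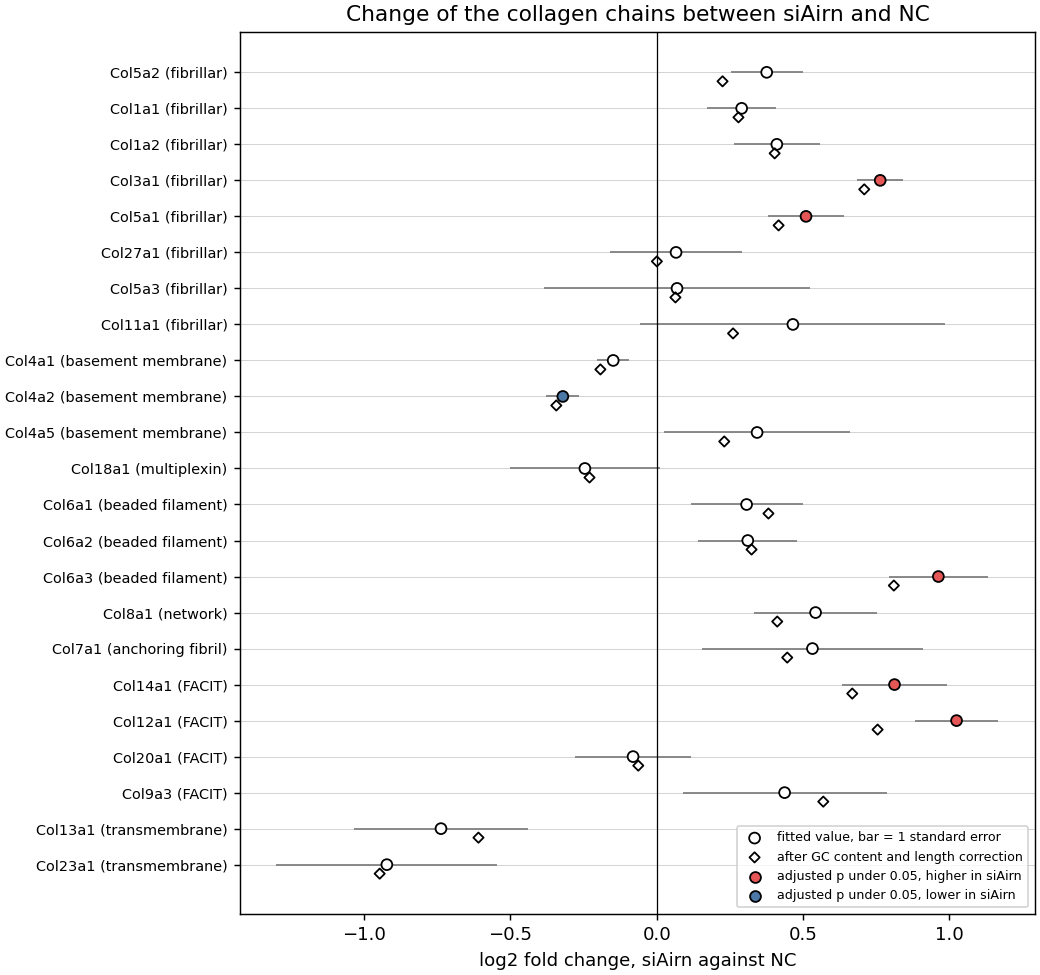
Log2 fold change of each collagen chain tested, siAirn against NC, with a bar of 1 standard error, filled where the adjusted p was under 0.05, and with the value after correction for GC content and transcript length as a diamond. Filled points lie at 0.76 for Col3a1, 0.51 for Col5a1, 0.96 for Col6a3, 0.81 for Col14a1, 1.03 for Col12a1 and -0.32 for Col4a2.

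Without a correction, the FACIT chains held the largest fitted increase among the chains tested, that of Col12a1. Col6a3 was above it with GC content and length corrected for (0.81 against 0.76), and also without siAirn replicate 2 or NC replicate 2. Col12a1, a FACIT of fibril surfaces in dense connective tissue (chr9:79598991-79718831, minus strand), was at 15.3 and 13.9 CPM in NC and at 25.9 and 33.6 CPM in siAirn. These levels rested on 252 to 594 counts, and the siAirn libraries were well above NC. The change was 2.04-fold, a log2 fold change of 1.03 ± 0.14 with an adjusted p of 0.00906. Col14a1, its close relative that binds decorin on fibrils (chr15:55307750-55520803, plus strand), was at 10.04 and 12.5 CPM in NC and at 16.9 and 22.8 CPM in siAirn. Again the groups did not overlap. The change was 1.76-fold, a log2 fold change of 0.81 ± 0.18 with an adjusted p of 0.0266. Without siAirn replicate 2 its log2 fold change was 0.58 and its adjusted p 0.0528.

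Not every FACIT chain followed. Col20a1 had 124 to 166 counts, with overlapping groups and a log2 fold change of -0.08 ± 0.20 (adjusted p = 0.807). Col9a3, a chain of cartilage type IX, had 21 and 24 counts in NC, against 37 and 25 in the siAirn libraries. Its log2 fold change was 0.44 ± 0.35 (adjusted p = 0.418), and 6.07% of its exonic bases lie under the opposite-strand gene Tcfl5. The summed FACIT level was 4.47 and 4.55 FPKM in NC and 7.14 and 8.33 FPKM in siAirn, low beside the fibrillar sum.

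Type VI collagen is built from Col6a1, Col6a2 and a long chain, most often Col6a3. Col6a3 (chr1:90765923-90843971, minus strand) was at 3.79 and 4.26 CPM in NC and at 7.69 and 8.03 CPM in siAirn, which rested on 65 and 77 counts against 139 and 142. The replicates of each group were close together and the groups far apart. The change was 1.95-fold, a log2 fold change of 0.96 ± 0.17 with an adjusted p of 0.015. Col6a1 was at 13.1 and 16.3 CPM in NC and at 14.9 and 21.5 CPM in siAirn, and the groups overlapped (0.31 ± 0.19, adjusted p = 0.302). Col6a2 was at 13.6 and 13.9 CPM in NC and at 14.2 and 20.0 CPM in siAirn (0.31 ± 0.17, adjusted p = 0.242). For both chains the higher siAirn mean came from replicate 2: without it the log2 fold changes were 0.02 and 0.04. The ratio of Col6a3 to Col6a1 in FPKM was 0.125 and 0.111 in NC and 0.220 and 0.161 in siAirn. The ratio of Col6a1 to Col6a2 overlapped between the groups, at 0.918 and 1.10 in NC and 1.02 and 1.02 in siAirn. The long chain thus rose relative to its partners in both siAirn libraries (exact two-sided permutation p = 0.333 for Col6a3 to Col6a1, the smallest possible).

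**Figure D4:**
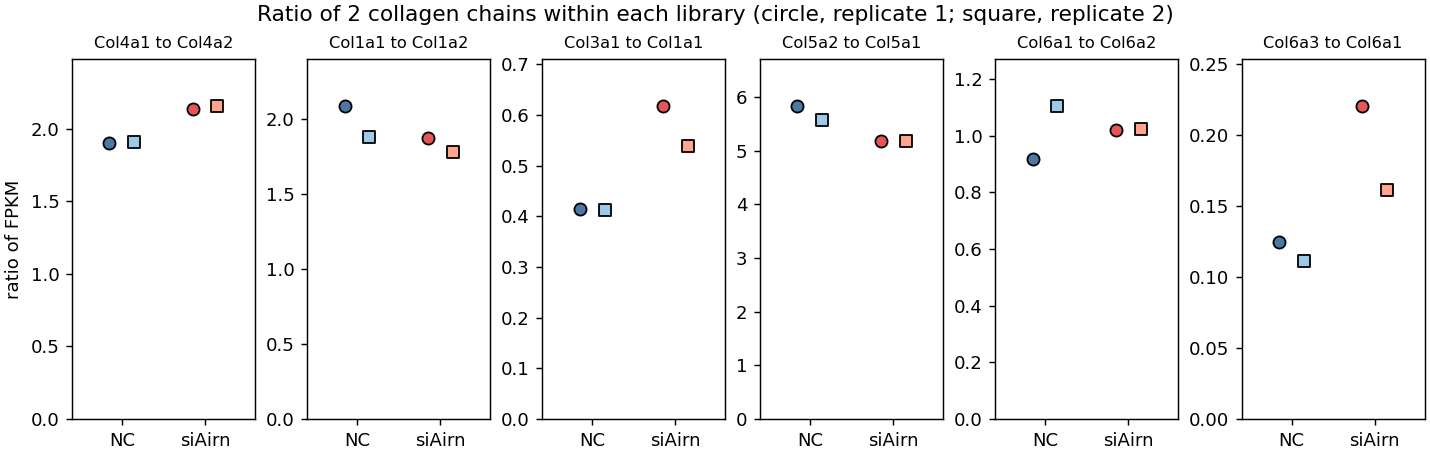
Ratio of the FPKM of chain pairs within each library, with NC in blue and siAirn in red, circles for replicate 1, squares for replicate 2 and axes that start at 0. Col4a1 to Col4a2, Col3a1 to Col1a1 and Col6a3 to Col6a1 are higher in both siAirn libraries, Col1a1 to Col1a2 and Col5a2 to Col5a1 are lower, and Col6a1 to Col6a2 overlaps.

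Network and anchoring collagens were represented by 1 tested chain each. Col8a1, a network collagen made by vascular cells, was at 12.4 and 18.02 CPM in NC and at 18.8 and 25.7 CPM in siAirn. NC replicate 2 was only slightly below siAirn replicate 1. It passed the fold rule of the study, at 1.46-fold with an unadjusted p of 0.0361 from edgeR's quasi-likelihood test, and missed the adjusted threshold, with a log2 fold change of 0.54 ± 0.21 and an adjusted p of 0.12. Its log2 fold change was 0.30 without siAirn replicate 2 or NC replicate 1, under the fold of that rule, and 0.84 without NC replicate 2. Col7a1, the anchoring fibril collagen of skin, had 16 to 32.5 counts and a log2 fold change of 0.53 ± 0.38 (adjusted p = 0.362). Leaving out NC replicate 1 gave 0.96, and leaving out NC replicate 2 gave 0.19.

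The membrane-bound collagens had negative fitted values. Col13a1, a transmembrane collagen of cell adhesion sites, was at 3.15 and 3.10 CPM in NC and at 2.27 and 1.47 CPM in siAirn, from 54 and 56 counts against 41 and 26. Both siAirn libraries were lower. The log2 fold change was -0.74 ± 0.30, with an unadjusted p of 0.0434 and an adjusted p of 0.135. Col23a1 was at 2.33 and 1.603 CPM in NC and at 1.22 and 0.848 CPM in siAirn, from 15 to 40 counts. Its log2 fold change was -0.92 ± 0.38, with an unadjusted p of 0.045 and an adjusted p of 0.138. Both passed the fold rule of the study and neither passed the adjusted threshold. Without NC replicate 1 the values of Col13a1 and Col23a1 were -0.73 and -0.63, and without siAirn replicate 2 they were -0.46 and -0.69. Neither chain passed that rule in these fits or in DESeq2.

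The 250 bases before the start site are shown for Col3a1, Col5a1 and Col6a3, the chains that rose and have an entry in the RefSeq promoter table used (GRCm38.p6), so that their upstream sequences can be compared. Each is written on the strand of its gene, and capitals mark GGGCGG (the letters of a GC box), CCAAT (those of a CAAT box), TATAAA (those of a TATA box) and CACCC on either strand, so that a motif of the opposite strand appears as its reverse complement. Neighbouring motifs may overlap. Col12a1 and Col14a1 are named only.
Col3a1, chr1:45311288-45311537, plus strand: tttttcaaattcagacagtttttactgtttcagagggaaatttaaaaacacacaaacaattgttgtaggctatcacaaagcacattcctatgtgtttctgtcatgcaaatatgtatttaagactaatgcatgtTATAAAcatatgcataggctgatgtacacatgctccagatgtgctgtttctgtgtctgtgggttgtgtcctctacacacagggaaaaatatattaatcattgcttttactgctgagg
Col5a1, chr2:27886175-27886424, plus strand: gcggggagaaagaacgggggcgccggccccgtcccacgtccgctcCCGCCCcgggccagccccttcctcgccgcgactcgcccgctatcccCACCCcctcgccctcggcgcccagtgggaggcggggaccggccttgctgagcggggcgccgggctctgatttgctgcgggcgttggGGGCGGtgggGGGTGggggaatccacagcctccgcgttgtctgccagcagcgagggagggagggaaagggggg
Col6a3, chr1:90843972-90844221, minus strand: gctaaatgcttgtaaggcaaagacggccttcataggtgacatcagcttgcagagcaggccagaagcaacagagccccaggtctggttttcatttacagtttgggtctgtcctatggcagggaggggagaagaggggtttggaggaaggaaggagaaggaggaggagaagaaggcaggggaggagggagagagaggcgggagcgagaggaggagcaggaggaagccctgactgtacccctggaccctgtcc

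The 3 sequences shared no marked motif. The Col3a1 sequence had 35.2% GC and held 1 TATAAA, which began 117 bases before the start site. The Col5a1 sequence had 76.4% GC and held GGGCGG and CACCC, each 2 times, and the Col6a3 sequence had 57.2% GC and held none of the 4 motifs. Of 41 chains, 33 matched the table, with 35 promoters. GGGCGG occurred in 21 of these 35 and in 32.7% of all 32851 promoters of the table over the same 250 bases. CCAAT occurred in 34.3% against 33.8%, TATAAA in 14.3% against 12.4%, and CACCC in 68.6% against 52.0%. The median GC content of all promoters of the table was 52.4%, and the part of base composition in these shares was not tested. A match is a run of letters and not a site of binding.

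**Figure D5:**
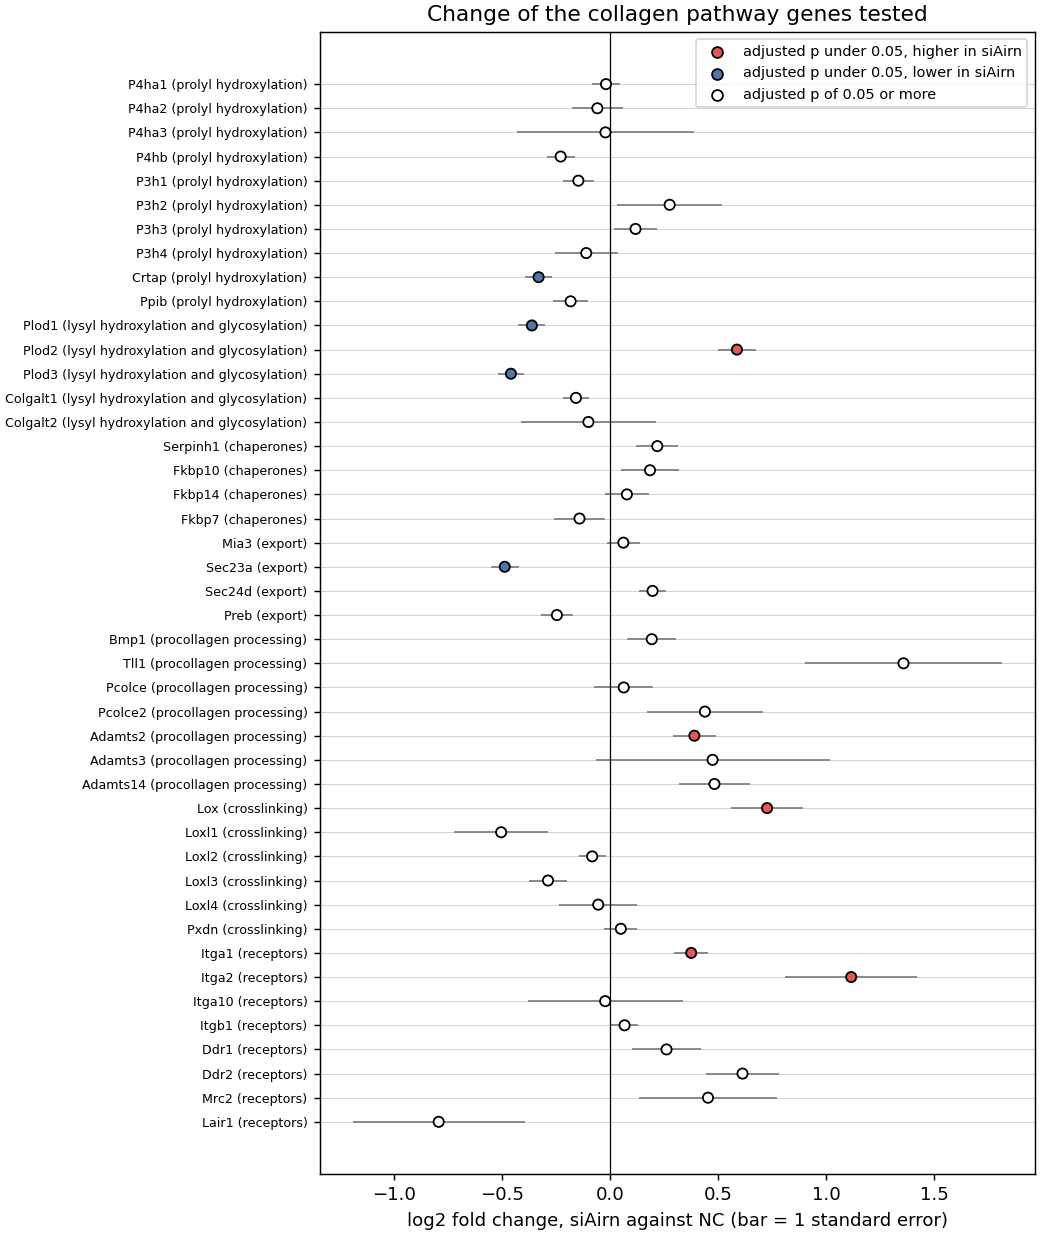
Log2 fold change, siAirn against NC, with a bar of 1 standard error, for the 44 tested genes that modify, fold, export, process, crosslink or bind collagen, filled where the adjusted p was under 0.05. Filled points that are higher are Plod2, Adamts2, Lox, Itga1 and Itga2, and filled points that are lower are Crtap, Plod1, Plod3 and Sec23a.

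Collagen chains are hydroxylated and folded in the endoplasmic reticulum, exported, trimmed outside the cell and crosslinked. Of 48 genes listed for these steps and for collagen receptors, 44 were tested, of which 5 rose (11.4%) and 4 fell (9.09%), with a median log2 fold change of 0.06. The list as a whole thus had shares near those of all genes tested, of which 8.27% rose and 8.56% fell.

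Prolyl hydroxylation stabilises the collagen triple helix. The catalytic subunits of prolyl 4-hydroxylase did not pass the test, with log2 fold changes of -0.02 for P4ha1, -0.06 for P4ha2 and -0.02 for P4ha3, and adjusted p of 0.764 or more. P4hb, their shared subunit, was at 922 and 931 CPM in NC and at 756 and 825 CPM in siAirn (-0.23 ± 0.07, adjusted p = 0.0554). The prolyl 3-hydroxylase family had log2 fold changes of -0.15 for P3h1, 0.28 for P3h2, 0.12 for P3h3 and -0.11 for P3h4, with adjusted p of 0.199 or more. Crtap, which forms a complex with P3h1, fell from 118 and 121 CPM in NC to 94.98 and 95.3 CPM in siAirn (-0.33 ± 0.06, adjusted p = 0.0171). After a correction for GC content and length the value for Crtap was -0.13, with an adjusted p of 0.185.

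The lysyl hydroxylases, which prepare collagen for crosslinking and for sugar attachment, moved in opposite directions. Plod2, the hydroxylase of the telopeptides, rose from 33.0 and 35.0 CPM in NC to 48.2 and 54.0 CPM in siAirn (0.59 ± 0.09, adjusted p = 0.0107). Plod1, which acts on the helix, fell from 192 and 203 CPM to 153 and 154 CPM (-0.36 ± 0.06, adjusted p = 0.0145). Plod3, which also transfers glucose and is needed for type IV collagen, fell from 212 and 218 CPM to 154 and 159 CPM (-0.46 ± 0.06, adjusted p = 0.00831). With GC content and length corrected for, all 3 calls held, at 0.50, -0.33 and -0.34.

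The procollagen chaperone Serpinh1 was at 545 and 600 CPM in NC and at 607 and 726 CPM in siAirn, with no overlap and an adjusted p of 0.161 (0.22 ± 0.10). The FK506-binding chaperones had log2 fold changes of 0.18 for Fkbp10, 0.08 for Fkbp14 and -0.14 for Fkbp7, with adjusted p of 0.373 or more. Sec23a, a coat protein of the vesicles that carry procollagen, fell from 80.2 and 82.4 CPM to 56.6 and 59.4 CPM (-0.49 ± 0.07, adjusted p = 0.00853). Adamts2, the protease that removes the amino-terminal propeptide of types I and III, rose from 14.8 and 15.5 CPM to 19.9 and 19.7 CPM (0.39 ± 0.10, adjusted p = 0.0387).

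Among the lysyl oxidases, which start crosslinks, Lox rose from 19.1 and 24.3 CPM in NC to 30.8 and 41.2 CPM in siAirn (0.73 ± 0.17, adjusted p = 0.03). The more abundant Loxl2, known to crosslink type IV collagen, was at 589 and 588 CPM in NC and at 538 and 574 CPM in siAirn (-0.08 ± 0.06, adjusted p = 0.388). Loxl1, Loxl3 and Loxl4 had log2 fold changes of -0.50, -0.29 and -0.05, with adjusted p of 0.069 or more. Of the receptors, the integrin chain Itga1 rose from 52.6 and 58.3 CPM to 69.4 and 74.5 CPM (0.38 ± 0.08, adjusted p = 0.0241). Itga2 rose from 3.15 and 3.15 CPM to 4.87 and 8.82 CPM (1.12 ± 0.30, adjusted p = 0.0488). The receptor kinase Ddr2, which binds fibrillar collagen, missed the threshold at 0.61 ± 0.17 (adjusted p = 0.0506), and its value was 0.32 without siAirn replicate 2 and 0.34 with GC content and length corrected for. Once GC content and length were corrected for, Adamts2, Lox, Itga1 and Itga2 no longer passed the test, with values of 0.29, 0.59, 0.05 and 0.87. The same 4 genes did not pass without siAirn replicate 2, with values of 0.40, 0.50, 0.32 and 0.63. Adamts2 also did not pass without siAirn replicate 1, at 0.38. Without either NC library no gene of the list passed.

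Transcript length and base composition differed between collagens and other genes. The chains tested had a median transcript length of 6119 bases and a GC content of 56.1%, against 3431 bases and 49.7% for all genes with a value. With a correction for both, the median log2 fold change of the 23 chains was 0.28, Col3a1 (0.71, adjusted p = 0.0085), Col12a1 (0.76, 0.0271), Col6a3 (0.81, 0.0366) and Col4a2 (-0.34, 0.0146) still passed, and Col14a1 (0.67, 0.0647) and Col5a1 (0.42, 0.0975) did not.

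Genes of hepatic stellate cells and fibroblasts other than collagens were present in every library, since Dcn, Acta2 and Tagln had at least 4405 counts in each. Of 16 listed, 14 were tested and 3 rose, Reln (0.98), Lum (0.43) and Acta2 (0.33), which is 21.4%, against 8.27% of all genes tested. The median log2 fold change was 0.32, 12 of the 14 had a positive value (50.1% of all genes did), and the groups did not overlap in 6, all higher in siAirn (30.9% of all genes). Without siAirn replicate 2 Lum (0.30, adjusted p = 0.118) and Acta2 (0.27, 0.0808) no longer passed, and Lum also missed the threshold with GC content and length corrected for (adjusted p = 0.0647). The stellate marker Gfap and the fibroblast gene Dpt had 3 or fewer counts in every library. The list summed to 1618 and 2040 CPM in NC and to 1813 and 2395 CPM in siAirn, so that the groups overlapped in the sum and replicate 2 was higher in each group. Whether these cells contributed to the collagen values was not tested, and in bulk RNA fewer cells of a type and less RNA per cell cannot be told apart.

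Many endothelial and macrophage markers were lower in siAirn, where 8.56% of all genes tested fell. Of the 10 LSEC markers 9 fell (median log2 fold change -0.60). Of the 10 general endothelial markers 6 fell (median -0.48), while Kdr (0.02), Tek (-0.05), Ptprb (-0.14) and Emcn (-0.29) did not pass the test, with a sum of 11189 and 10599 CPM in NC and 8211 and 7187 CPM in siAirn. Of the 10 macrophage markers tested 6 fell (median -0.74, with a sum of 227 and 275 CPM in NC and 176 and 144 CPM in siAirn). Of the 8 hepatocyte genes tested 1, Apoa1, rose, which is 12.5%, against 8.27% of all genes tested (median 0.40, with a sum of 615 and 785 CPM in NC and 856 and 1116 CPM in siAirn). Without siAirn replicate 2 Apoa1 (0.73), Adgre1, C1qa and C1qc no longer passed. With GC content and length corrected for, Egfl7, Esam, Adgre1, Lyz2, C1qa and C1qc did not. Without either NC library nearly all marker calls were lost, as in the whole table. The mesothelial, cholangiocyte and lymphocyte lists summed to at most 11.4, 34.1 and 5.88 CPM in any library. The part of these lists in the collagen values was not tested.

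The libraries of the siAirn group differed from each other in the collagens. Of the 23 chains tested, 16 were higher in siAirn replicate 2 than in replicate 1, and 12 were higher in NC replicate 2 than in NC replicate 1. Without siAirn replicate 2 edgeR's quasi-likelihood test called 4 chains, Col3a1, Col6a3 and Col12a1 higher and Col4a2 lower, among 1384 of all 13628 genes. Without siAirn replicate 1 it called 12 chains, 11 of them higher, among 2332 genes in all, 1162 of them higher. Without NC replicate 1 or NC replicate 2 no chain passed at an adjusted p under 0.05, as was the case for nearly every gene of the table. The fits without a library assume that the lone library of a group varies as the other group does.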

How the data were processed

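The series holds RNA-seq libraries of cultured primary mouse LSECs, 2 of the NC group and 2 of the siAirn group, as labelled. Reads were single-end and 50 bases long. The submitters' processing notes name BWA, Bowtie2 and RSEM without their roles, and hg19, a human build that cannot hold mouse genes. The use of strand in counting is not given in the sources used here. The authors deposited estimated counts, of which 76.5% to 76.8% were whole numbers, and a second value per gene and library. That deposited value was read as FPKM, because the length it implies for a gene varied between libraries by a median of 0.485% (CV) over 6392 well-counted genes.

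Estimated counts were rounded. The analysis used edgeR 4.0.16 under R 4.3.3, with TMM factors from 0.985 to 1.02, filterByExpr defaults and the quasi-likelihood test with no covariate. Adjusted p-values are Benjamini-Hochberg values over the 13628 genes tested, and standard errors (SE) are those implied by the F statistic. CPM were scaled by TMM. Coordinates, lengths and GC content came from GENCODE M21 (GRCm38), matched to 12948 genes tested (95%), and promoters from RefSeq (GRCm38.p6). The build of the deposited files is not settled, so coordinates come from the reference alone.

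Each chain was included by its gene name alone, but collagens as the subject, and the lists of classes, pathway genes and markers, were chosen with earlier results of these data known. Named with values in every library were chains past either threshold, tested chains of types I, III, IV, V, VI, XV and XVIII, the 5 most abundant and their partners. Pathway genes named were those with an adjusted p under 0.05, the chaperones, the prolyl hydroxylases and the lysyl oxidases, and Ddr2 was added after its value was seen. Alternatives were DESeq2 1.42.0, upper-quartile factors, other filters on low counts, edgeR's likelihood-ratio test, limma 3.58.1 on log2(FPKM + 1) and log2(FPKM + 0.1), a replicate block, a spline correction for GC content and length, stricter thresholds, and leaving out each library. The calculations were tested on simulated data. Intervals cover counting error only.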

Additional observations from a re-analysis of the deposited data

How the results depend on the processing

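With 2 libraries a group, the calls depended on the libraries kept, for all genes tested as for the collagens. The ranges of counts that follow have no share of all genes beside them. They show how the calls moved with the libraries and are not read as particular to collagens. Over the fits that each left out 1 library, between 0 and 11 chains rose and between 0 and 1 fell at an adjusted p under 0.05. The study's rule gave between 4 and 10 chains higher and between 0 and 3 lower, the pathway list gave between 0 and 8 genes higher and between 0 and 5 lower, the median log2 fold change of the chains lay between 0.17 and 0.54, and that of the FACIT chains between 0.52 and 0.73. The calls of Col12a1, Col14a1, Col4a2, Col6a3, Col3a1 and Col5a1 were lost without either NC library, where nearly no gene of the table passed. The fitted values stayed close for Col12a1 (1.09 and 0.96) and Col3a1 (0.74 and 0.78), and less so for Col14a1 (0.66 and 0.98). The calls of Col14a1 and Col5a1 were also lost without siAirn replicate 2. Col5a3 turned to -0.15 without NC replicate 2 and to -0.36 without siAirn replicate 2, with 0.40 as its highest value in these fits, and Col18a1 turned to 0.058 without siAirn replicate 2, with -0.63 as its lowest. Neither chain passed the test with all libraries.

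The labels do not say what a shared replicate number stands for, and with 2 replicates a group the deviations from the group means give a single correlation, 0.23, which does not settle it. With the replicate block edgeR called 10 chains higher, Col1a1 (adjusted p = 0.00825), Col1a2 (0.000634), Col5a2 (0.00133), Col6a1 (0.0439) and Col8a1 (0.00121) among them. It called 11 pathway genes higher and 9 lower. Of all 13628 genes tested it called 4841, 2405 of them higher and 2436 lower, against 2294 called without the block. With the replicate block and the GC content and length correction together it called 11 chains higher and 3 lower, and 12 pathway genes higher and 10 lower, among 4062 of 12948 genes called (1794 higher, 2268 lower). With the correction alone, 3 chains were higher, 1 chain was lower by the study's rule, 1 pathway gene was higher, and of all genes 364 were higher and 677 lower, against 1127 and 1167 without it.

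DESeq2 left 0 chains lower by the study's rule and called 8 chains against 6, among 1835 genes called in all. Without a filter beyond 1 count, 3 of 47 pathway genes were higher, where 956 of all 18014 genes tested were. The medians of this fit were -0.29 over 5 basement membrane and 0.91 over 8 FACIT chains, which add chains too low to read. The likelihood-ratio test called 8 pathway genes higher, among 3140 genes called in all, 1565 of them higher. Limma with a pseudocount of 1 or of 0.1 FPKM tested only 13 chains and 37 pathway genes, without Col6a3, Col13a1 and Col23a1. It called 3 chains and 2 pathway genes higher, where 923 or 932 of all 11667 genes tested were higher. It left 0 chains lower by the study's rule. With the smaller pseudocount the FACIT median was 0.91 over 2 chains. Without a filter limma called 0 chains and 0 pathway genes in either direction, with 0 of 18042 genes called in all. It left 0 chains lower by the study's rule. The medians were 0.021 for all chains, 0.069 for fibrillar, -0.035 for basement membrane and 0.087 for FACIT chains. A fold change over 2 left 1 chain higher and 0 lower in edgeR, and an unadjusted p under 0.01 left 0 lower by the study's rule. The causes were not tested. Of 260 values of 18 named chains under the alternatives, 210 kept their direction and their side of the threshold, and 3 turned sign. Outside these 18, Col27a1 turned to -0.11 and -0.14 without NC replicate 1 and siAirn replicate 1, and Col20a1 turned to 0.12 and 0.10 without NC replicate 1 and siAirn replicate 2.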
